A study of Mus musculus with 10 samples.

Results

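Heat shock proteins and their co-chaperones were examined in brain endothelial cells (BECs) of APP/PS1 and control mice. The members were the protein-coding genes whose symbol begins with Hspa, Hspb, Hsp90, Dnaj or Cct followed by a digit, together with Hspd1, Hspe1, Hsph1, Hsf1, Hsf2 and Bag1 to Bag6. Of 90 such genes in the GENCODE annotation, 77 were among the 14106 measured genes. The other 13 were not analysed here. They were Cct6b, Cct8l1, Dnajb3, Dnajb7, Dnajb8, Dnajc22, Dnajc5b, Dnajc5g, Dnajc6, Hspb2, Hspb3, Hspb7 and Hspb9. Hspbp1 and Hspbap1, which bind heat shock proteins, met the rule by their symbols.

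The cells were CD31+CD45- BECs of the cortex, freshly isolated with a warm digestion in collagenase and dispase. APP/PS1 mice carry transgenes for a mouse and human hybrid of APP with the Swedish mutation and for a mutant human PS1, both linked to familial Alzheimer's disease, and deposit Aβ in the brain, and the controls, labelled WT, were of matched age and of the C3H/BL6 background that both groups share. All mice were female and 1 year old, and each group had 5 libraries. Whether a library held cells of 1 mouse or of several is not stated in the sources used here, so each SD and p describes the spread between libraries, which may be partly technical. Values are log2 CPM (the counts of a gene scaled to the total of its library, on a log2 scale), corrected for batch by the authors, and each APP/PS1 library was paired with the control library of the same replicate number.

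Chaperones bind proteins that are not folded and keep them from aggregating. The Hsp70 proteins do so in a cycle driven by ATP. In this cycle J proteins (the Dnaja, Dnajb and Dnajc genes) start ATP hydrolysis, and the Hsp110 and BAG proteins release ADP. Hsp90 acts later on signalling proteins, the small heat shock proteins hold unfolded chains without ATP, and the ring-shaped chaperonins (Hsp60 with Hsp10 in mitochondria, CCT in the cytosol) enclose their substrates. The transcription factor Hsf1 switches on the inducible members by binding inverted repeats of GAA, the heat shock element, whereas chaperones of the endoplasmic reticulum (ER) are switched on through a separate element when unfolded proteins build up there.

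The promoters of 63 of the 77 members were found in the RefSeq promoter table (build GRCm38.p6, 250 bases before to 50 after the start of each gene). Searched as GAANNTTC, a sequence that reads the same on both strands, a pair of heat shock units was present in 14 of 63 members (22.22%), against 9.04% of all 27025 promoters and 6.88% of the 9770 with a measured gene. It was present in 9 of 12 members from a list of classic heat-inducible genes (75%) and in 5 of 51 other members (9.8%). Windows of the inducible genes that the results below turn on are shown, 5′ to 3′ on the strand of the gene, with this motif in capitals.
Hspa1a: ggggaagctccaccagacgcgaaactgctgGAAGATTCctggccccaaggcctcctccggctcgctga
Hspa1b: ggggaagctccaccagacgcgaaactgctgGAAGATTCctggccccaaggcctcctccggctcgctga
Hsph1: tgcagattctgGAAAGTTCtcctcagtagg
Hspe1: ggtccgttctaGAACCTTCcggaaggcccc
Hspd1: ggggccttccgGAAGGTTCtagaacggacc
These windows lie at chr17:34972223-34972290 (Hspa1a, minus strand), chr17:34959305-34959372 (Hspa1b, minus), chr5:149636277-149636306 (Hsph1, minus) and chr1:55088053-55088082 (Hspe1, plus). Hspd1 is read from the opposite strand of the Hspe1 window, so this pair of genes, whose annotated start sites are 111 bases apart, shares 1 motif. In Hspa1a and Hspa1b the motif spans positions -104 to -97 from the start site, upstream of the annotated exons, and their whole promoters had equal bases at 296 of 300 positions. The motifs of Hsph1, at 20 to 27 bases past its start, and of Hspe1 and Hspd1 lie within exons annotated in GENCODE.

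The ER stress element, taken as CCAAT, 9 bases and CCACG on either strand, was present in 0.14% of all promoters and in 0.15% of those with a measured gene. It was found in 3 of 63 members (4.76%), namely Hspa5, Hsp90b1 and Dnajc3, all from the list of 9 ER members. For Hspa5 it lies within chr2:34772020-34772048 (plus strand), and Hsp90b1 carries it at 2 positions, once on each strand, within chr10:86705510-86705686 (minus strand), shown with the elements in capitals.
Hspa5: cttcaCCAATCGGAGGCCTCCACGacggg
Hsp90b1: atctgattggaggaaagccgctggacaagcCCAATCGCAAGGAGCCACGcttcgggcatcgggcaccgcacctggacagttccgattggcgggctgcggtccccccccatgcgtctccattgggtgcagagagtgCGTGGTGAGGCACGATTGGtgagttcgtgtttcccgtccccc
A match is a description of the letters in these windows and not a measured binding site.

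Chaperone genes were strongly expressed in the isolated BECs. The mean level over the 10 libraries was above 4 log2 CPM for 58 of 77 members, above 6 for 36 and under 2 for 6. Hsp90ab1, the constitutive cytosolic Hsp90, had the highest level of the members at 10.86 log2 CPM and ranked 43 among 14106 genes. Per kilobase of exon, the highest levels were 9.27 log2 CPM in Hsp90ab1, 8.77 in Hspa1b, 8.63 in Hspa1a, 7.88 in Hspb1 and 7.31 in Hspa5. The lowest was -1.45 in Hspa12a. Hspa12b, an Hsp70 relative known from endothelium, reached 9.02 log2 CPM before scaling to length.

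Endothelial markers were high in each library, with a log2 summed CPM of 12 markers between 14.76 and 14.87 in control and between 14.80 and 14.91 in APP/PS1 libraries. Adjusted counts (the whole numbers behind the corrected values) totalled 22993426 to 126686149 (median 106866795) in the control and 22371766 to 114525432 (median 101313832) in the APP/PS1 group. The libraries of replicate 1 had the lowest totals in both groups. The authors' correction had set the batch means equal, so in each pair the control and the APP/PS1 library lie at about the same distance on opposite sides of 1 mean. The SD within a group therefore carries the same information as the spread of the 5 paired differences.

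No member differed between APP/PS1 and control BECs at an adjusted p under 0.05 in limma with the pairs as a term, nor did any of the 14106 genes (0% called). The smallest adjusted p of a member was 0.537. At an unadjusted p under 0.05, 3 members were lower (Hspa12a, Dnajc15 and Hspe1), against 833 of all genes (5.91%), and 0 members were higher, against 300 of all genes (2.13%). The median log2 fold change was 0.01 over the members and 0.00 over all genes, and 96.1% of members (74 of 77) lay within 0.2 log2 units of zero, against 84.6% of all genes. The exceptions were Hspa12a, Dnajc15 and Dnajc28, the last of these named after its values were seen. The shares within 0.2 log2 units were not matched for level, as the median level was 5.88 log2 CPM in the members and 4.295 in all genes. APP/PS1 was higher in all 5 pairs for 1 member (Bag5), against 2.99% of all genes, and lower in all 5 pairs for 3 members (Hspa12a, Hspe1 and Dnajc4), against 5% of all genes. The same 4 members were those whose groups did not overlap, where the shares of all genes were 2.91% higher and 4.96% lower. With the libraries of each pair on opposite sides of 1 mean, this nearly repeats the count over 5 pairs and is not a second result. As shares of the 77 members, these counts were each below the share of all genes. A fit without the pairs counts degrees of freedom that the removal of the batch means had already used, so its SEs are too small and its calls too many. It called 648 genes and 2 members, Hspa12a (adjusted p = 0.0247) and Dnajc4 (adjusted p = 0.0359).

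**Figure D1:**
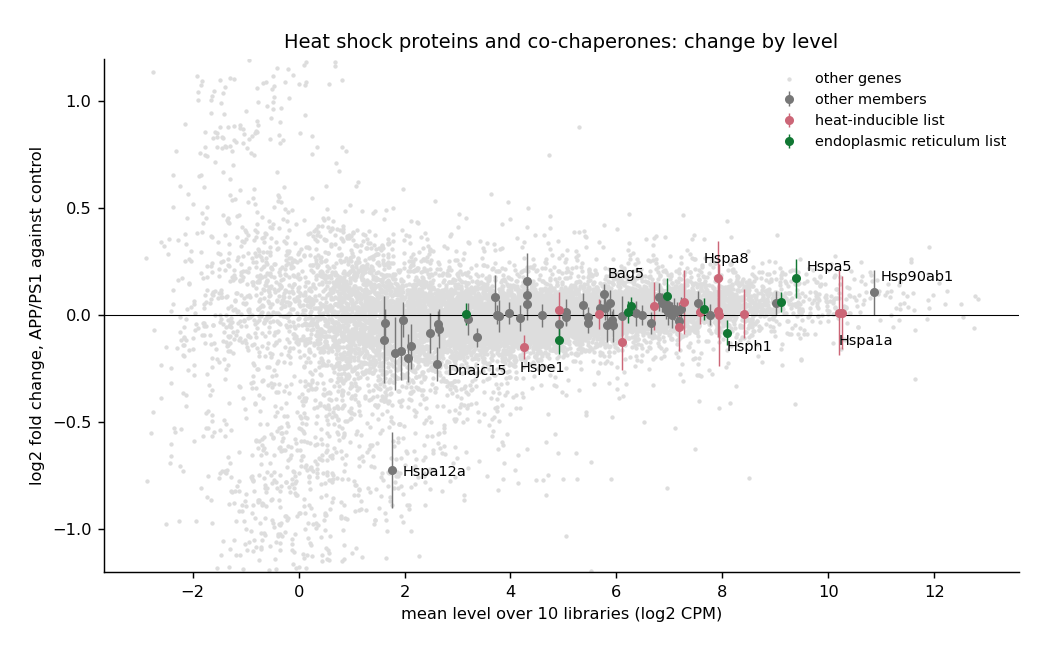
Log2 fold change (APP/PS1 against control, vertical) against mean level over 10 libraries (log2 CPM, horizontal) for all measured genes (light grey) and the 77 members (coloured or dark grey, bars 1 standard error), with genes beyond the vertical axis not drawn. Members lie within 0.2 log2 units of zero apart from Hspa12a at -0.72, Dnajc15 at -0.23 and Dnajc28 at -0.20.

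The cytosolic inducible Hsp70 proteins are encoded by Hspa1a (ENSMUSG00000091971) and Hspa1b (ENSMUSG00000090877), neighbours on chromosome 17 with low expression in most unstressed tissues. Hspa1a had 10.12, 10.61, 10.26, 9.99 and 10.01 log2 CPM in control replicates 1 to 5 and 10.30, 9.75, 10.18, 10.42 and 10.40 in the APP/PS1 replicates of the same pairs. Control was far above APP/PS1 in pair 2, slightly above it in pair 3, and below it in pairs 1, 4 and 5, so the groups overlapped. The log2 fold change was 0.01 ± 0.20 (SE, n = 5 pairs, adjusted p = 0.994 by limma). Hspa1b had a mean level of 10.25 log2 CPM and a log2 fold change of 0.01 ± 0.17 (SE). Of the 50-base windows of the longest Hspa1b transcript, 62.3% also occurred in Hspa1a, so the division of reads between these genes is uncertain. Hspa1l, the neighbouring gene known from testis, had the lowest level of the members before scaling to length, 1.61 log2 CPM.

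Hsph1 (ENSMUSG00000029657), the inducible Hsp110 that recharges Hsp70 with ATP, had the widest SD of the paired differences among the members, 0.633 log2 units. Its control libraries had 7.77, 8.35, 8.20, 7.76 and 7.64 log2 CPM, and its APP/PS1 libraries 8.13, 7.51, 7.70, 8.15 and 8.24. Pairs 2 and 3 were lower in APP/PS1 by 0.84 and 0.49 log2 units, and pairs 1, 4 and 5 were higher by 0.36, 0.40 and 0.60. These opposite differences cancelled in the mean, with a log2 fold change of 0.00 ± 0.24 (SE, adjusted p = 0.999 by limma). Hspa4, a constitutive relative, differed by 0.06 ± 0.06 (SE).

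Hspa8 (ENSMUSG00000015656), the constitutive Hsp70 of the cytosol that also strips clathrin from vesicles, ran in the opposite direction in pair 2. It had 8.09, 7.50, 7.93, 7.84 and 7.77 log2 CPM in the control libraries and 7.68, 8.30, 7.92, 8.01 and 8.09 in the APP/PS1 libraries. The second control library was the lowest of the 10 and its APP/PS1 partner the highest. The log2 fold change was 0.18 ± 0.17 (SE, adjusted p = 0.853 by limma), and it ranged from 0.02 without replicate 2 to 0.32 without replicate 1. Of its transcript windows 74.8% were shared with other genes, mostly the processed copy Gm15459.

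**Figure D2:**
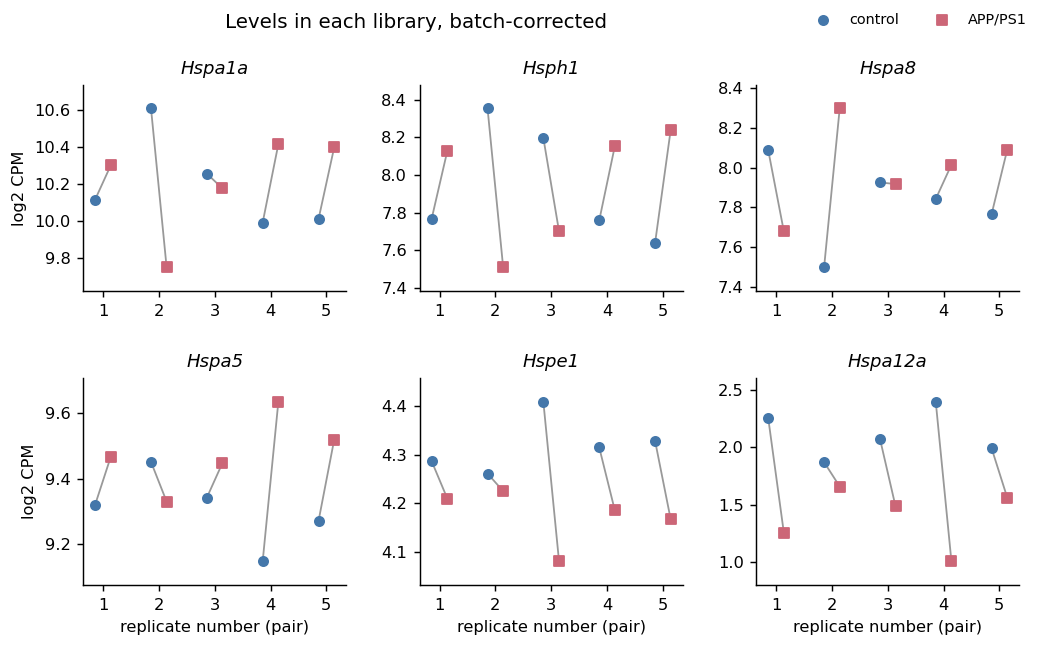
Level in each library (log2 CPM after the authors' batch correction, vertical, own scale for each gene) by replicate number for control (blue circles) and APP/PS1 (red squares), with lines joining the libraries of a pair. Hspa1a and Hsph1 cross between pairs and end at log2 fold changes of 0.01 and 0.00, whereas Hspe1 and Hspa12a are lower in APP/PS1 in each of 5 pairs.

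Other inducible members also changed sign between pairs. Hsp90aa1, the inducible Hsp90, ranged from 7.10 to 7.57 log2 CPM in control and from 6.96 to 7.45 in APP/PS1 libraries, and differed by 0.06 ± 0.15 (SE). Hspb1, a small heat shock protein that binds actin, differed by 0.02 ± 0.12 (SE). Dnajb1, the main J protein partner of inducible Hsp70, differed by 0.01 ± 0.11 (SE), and Dnaja1, which serves Hsp70 in the cytosol, by 0.01 ± 0.06 (SE). Bag3 and Hspb8 act together in the removal of aggregates by autophagy, and differed by 0.04 ± 0.11 and -0.05 ± 0.11 log2 units (SE). None of these genes kept 1 direction over the 5 pairs.

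Seen together, most of the 14 genes of the heat-inducible list shared a direction within pairs 2, 4 and 5, and this direction differed between pairs. Their SD of the 5 paired differences had a median of 0.30 log2 units, against 0.12 in the other 63 members, 0.12 in the 3400 genes above 6 log2 CPM and 0.17 in all genes. The median difference of the list (APP/PS1 minus control) was 0.20 in pair 1, -0.32 in pair 2, -0.10 in pair 3, 0.24 in pair 4 and 0.25 in pair 5. In pair 2 13 of 14 genes were lower in APP/PS1, with Hspa8 the exception, and in pair 3 12 of 14, or 9 of 14 once each library was centred on its median. In pair 4 12 of 14 were higher and in pair 5 13 of 14, while pair 1 was divided into 8 higher and 6 lower. Strongly expressed genes in general leaned the same way in these 3 pairs, with 2194 of the 3400 genes above 6 log2 CPM lower in pair 2, 2219 higher in pair 4 and 2261 higher in pair 5, whereas in pair 3 1147 of them were lower. Of the other 63 members 42 were lower in pair 2, 33 lower in pair 3, 41 higher in pair 4 and 35 higher in pair 5. Without Hspa8 the median SD was 0.29. Without replicate 2 it fell to 0.20, against 0.10 in the other members, and with each of the other replicates left out it was between 0.30 and 0.32. Leaving out replicate 2 also raised the count of members higher in all remaining pairs from 1 to 8, and moved the log2 fold changes of Hspa1a to 0.23 and Hsph1 to 0.22. Pairs 4 and 5 carry the same batch in the sample labels.

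Members were also divided by the promoter motif alone. The 14 members with GAANNTTC in the promoter had a median SD of 0.22 over the paired differences, and the 49 members with a promoter entry and no match had 0.12. Of the 14, 13 were lower in pair 2 and 13 in pair 3, and 1 was lower in each of pairs 4 and 5. Of the 49, 36 were lower in pair 2, 25 in pair 3, 17 in pair 4 and 21 in pair 5, so most members without the motif were lower in pair 2 as well. Of the genes with the motif, 9 are also on the heat-inducible list, so both descriptions rest largely on the same genes. Hspa1a and Hspa1b, with nearly equal promoters, and Hspd1 and Hspe1, with 1 shared motif, each count separately among the 14.

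Genes of the early response to cell dissociation, such as Fos, Jun and Egr1, were listed as a measure of isolation. Of 14 such genes 13 were measured, and all 13 had a higher mean in APP/PS1. They were strongly expressed, each above 8.7 log2 CPM, and 2400 of the 3400 genes above 6 log2 CPM also had a higher mean. The 13 genes had a median change of 0.13 log2 units, and 1 passed an unadjusted p of 0.05 in limma and 0 an adjusted p of 0.05. Their median differences over pairs 1 to 5 were -0.10, 0.00, 0.09, 0.51 and 0.22. In pair 4 all 13 were higher and in pair 5 12 of 13, the pairs in which the heat-inducible genes were also higher. Of the 3400 strongly expressed genes, 2219 were higher in pair 4 and 2261 in pair 5. In pairs 1 and 3 the medians of the heat-inducible and dissociation lists had opposite signs, and in pair 2 the dissociation list stayed near zero. The part of cell isolation in the paired differences was not tested.

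**Figure D3:**
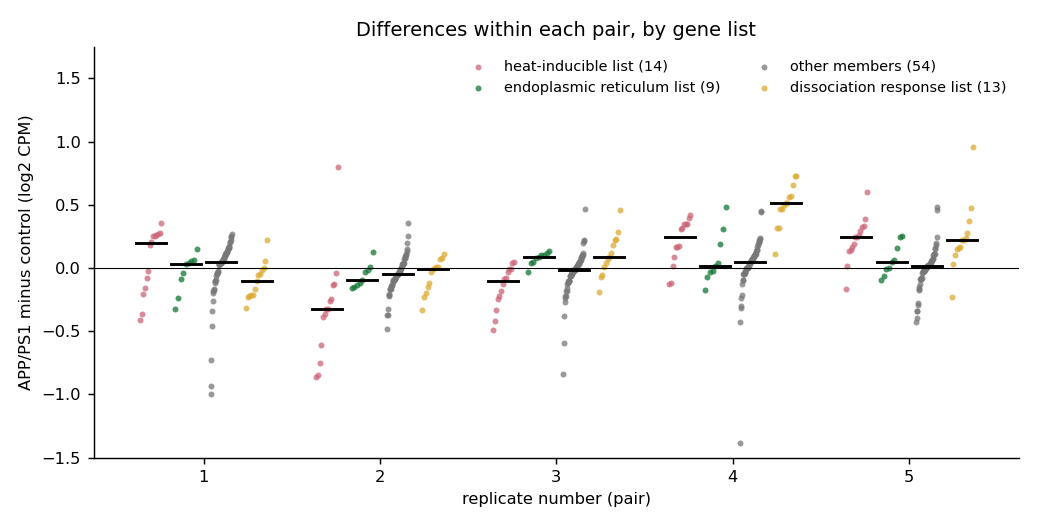
Difference within each pair (APP/PS1 minus control, log2 CPM, vertical) by replicate number for each gene of the heat-inducible list (14), the ER list (9), the other members (54) and the dissociation response list (13), with black bars at the medians. The heat-inducible medians run from -0.32 in pair 2 to 0.25 in pair 5.

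In the ER list 7 of 9 genes had a higher mean in APP/PS1, the median being 0.03 log2 units, and none had an unadjusted p under 0.05. Among the 3400 genes above 6 log2 CPM, 2400 had a higher mean and the median was also 0.03. Hspa5 (BiP, ENSMUSG00000026864), the Hsp70 of the ER, had 9.32, 9.45, 9.34, 9.15 and 9.27 log2 CPM in control libraries and 9.47, 9.33, 9.45, 9.63 and 9.52 in APP/PS1 libraries. APP/PS1 was higher in pairs 1, 3, 4 and 5 and lower in pair 2, and the groups overlapped. The log2 fold change was 0.17 ± 0.09 (SE, adjusted p = 0.734 by limma), and it ranged from 0.09 without replicate 4 to 0.25 without replicate 2. The other ER genes named lay closer to zero. Hsp90b1 (Grp94), the Hsp90 of the ER, differed by 0.06 ± 0.05 (SE). Dnajb9 and Dnajc3, J proteins that work with BiP, differed by 0.09 ± 0.09 and 0.03 ± 0.05 (SE).

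Partners of the ER chaperones were read from a list of 19 genes with calreticulin, protein disulfide isomerases and sensors of unfolded proteins. Of these, 11 had a higher and 8 a lower mean in APP/PS1, with a median of 0.02, and 0 of 19 passed an unadjusted p of 0.05. In pair 2 16 of the 19 were lower and in pair 4 18 were higher. The ER members had 7 of 9 lower in pair 2 and 5 of 9 higher in pair 4.

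Mitochondrial members divided evenly, with 4 of 8 higher and 4 lower, or 6 higher and 2 lower after each library was centred on its median. Hspe1 (Hsp10, ENSMUSG00000073676), the lid of the mitochondrial chaperonin, had 4.29, 4.26, 4.41, 4.32 and 4.33 log2 CPM in the 5 controls and 4.21, 4.22, 4.08, 4.18 and 4.17 in their APP/PS1 partners. APP/PS1 was lower in all 5 pairs, by the widest margin in pair 3, which after the batch correction nearly fixes that the groups did not overlap. The log2 fold change was -0.15 ± 0.06 (SE), with an unadjusted p of 0.0432 and an adjusted p of 0.605 in limma. The unadjusted p in limma was above 0.05 with libraries centred on their median (0.061) and without replicate 1, 3, 4 or 5 (0.0591, 0.126, 0.0859 and 0.108). Hspd1 (Hsp60), which forms the ring that Hspe1 closes, overlaps it on the other strand and shares the motif shown above. Its log2 fold change was 0.00 ± 0.07 (SE, adjusted p = 0.993 by limma), with values from 5.55 to 5.74 in control and from 5.61 to 5.80 in APP/PS1 libraries. The paired differences of these neighbours were 0.25 for Hspd1 and -0.08 for Hspe1 in pair 1, and both genes were lower in pairs 2 and 3. In pairs 4 and 5 they again differed in sign, with 0.02 and 0.01 for Hspd1 and -0.13 and -0.16 for Hspe1. For each of them 44.8% of the transcript windows also occur in other genes.

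Dnajc15, a J protein of the inner mitochondrial membrane, is named because its unadjusted p was under 0.05, a choice made after its values were seen. Control libraries had 2.83, 2.72, 2.73, 2.58 and 2.75 log2 CPM and APP/PS1 libraries 2.37, 2.49, 2.49, 2.64 and 2.47. APP/PS1 was lower in pairs 1, 2, 3 and 5 and slightly higher in pair 4. The log2 fold change was -0.23 ± 0.08 (SE), with an unadjusted p of 0.0298 and an adjusted p of 0.577 in limma. Hspa9 (mortalin), the Hsp70 that pulls proteins into the mitochondrion, differed by 0.05 ± 0.05 (SE).

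Hspa12a (ENSMUSG00000025092), a distant Hsp70 relative on chromosome 19, had the largest difference of the members. Control libraries had 2.25, 1.87, 2.07, 2.39 and 1.99 log2 CPM, and APP/PS1 libraries 1.25, 1.66, 1.48, 1.01 and 1.56. APP/PS1 was lower in all 5 pairs, which after the batch correction nearly fixes that the groups did not overlap. Pairs 1 and 4 had the widest differences, with -1.39 log2 units in pair 4. The log2 fold change was -0.72 ± 0.18 (SE), with an unadjusted p of 0.0072 and an adjusted p of 0.537 in limma, and 5 pairs allow no two-sided exact sign-flip p below 0.0625. Its endothelial relative Hspa12b differed by 0.06 ± 0.06 (SE) and overlapped between groups.

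Markers of several other cell types were also lower in APP/PS1, and their paired differences matched those of Hspa12a only in part. All 9 mural cell markers had a lower mean in APP/PS1, 2 of them in all 5 pairs, and their log2 summed CPM was 9.24 to 9.99 in control and 8.30 to 9.25 in APP/PS1 libraries. The paired differences of that sum were -1.70, -0.32, -0.42, -1.35 and 0.01. All 9 measured oligodendrocyte markers were also lower, 4 in all 5 pairs, with sums of 5.39 to 8.12 in control and 5.07 to 7.15 in APP/PS1 libraries and paired differences of -3.05, 1.77, -2.16, -2.27 and -2.49. The mural sum was widest apart in pairs 1 and 4, the pairs in which Hspa12a was widest apart. In pair 5 the mural sum differed by 0.01 and 6 of the 9 mural markers were higher, whereas Hspa12a differed by -0.43. The oligodendrocyte sum was reversed in pair 2, where Hspa12a differed by -0.21. At an unadjusted p under 0.05 in limma, 8 of 9 mural, 6 of 9 oligodendrocyte and 4 of 7 neuronal markers were lower. So were 2 of 8 astrocyte and 2 of 3 ependymal markers, 0 microglial and 0 erythroid markers, and 5.91% of all genes. Of the 7 measured neuronal markers out of 12 listed, 6 had a lower mean. The median was -0.57 log2 units, and 5 of the 7 were higher in pair 2. Neuronal sums of 6.82 to 7.08 in control and 6.81 to 7.08 in APP/PS1 libraries rest mainly on 1 abundant gene, at 6.66 log2 CPM against a median of 0.42 in the list. Astrocyte markers were lower in 7 of 8, with a median of -0.66 log2 units. Their medians over pairs 1 to 5 were -2.33, 0.55, -1.53, -0.60 and -0.11, and 6 of 8 were higher in pair 2. Astrocyte sums of 7.42 to 7.73 in control and 7.42 to 7.75 in APP/PS1 libraries rest mainly on 1 abundant gene. Its level was 7.22 log2 CPM, against a median of 1.52 in the list. The 3 measured ependymal markers out of 7 were all lower, and the paired differences of their sum, -2.16, -0.65, -0.54, -1.09 and -0.003, were also widest in pairs 1 and 4. Of the 7 measured microglial markers 4 were lower and 3 higher, with paired differences of their sum of 0.146, 0.038, -0.199, 0.107 and -0.285. The 4 measured erythroid markers all had a lower mean, but their sum was higher in pairs 4 and 5, by 0.76 and 2.375. Of all marker genes measured, 2 of oligodendrocytes (Mag and Ermn) were at zero adjusted counts in at least 1 library. In bulk RNA, fewer cells of a type and less RNA per cell cannot be told apart, and the part of other cells in the Hspa12a difference was not tested.

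**Figure D4:**
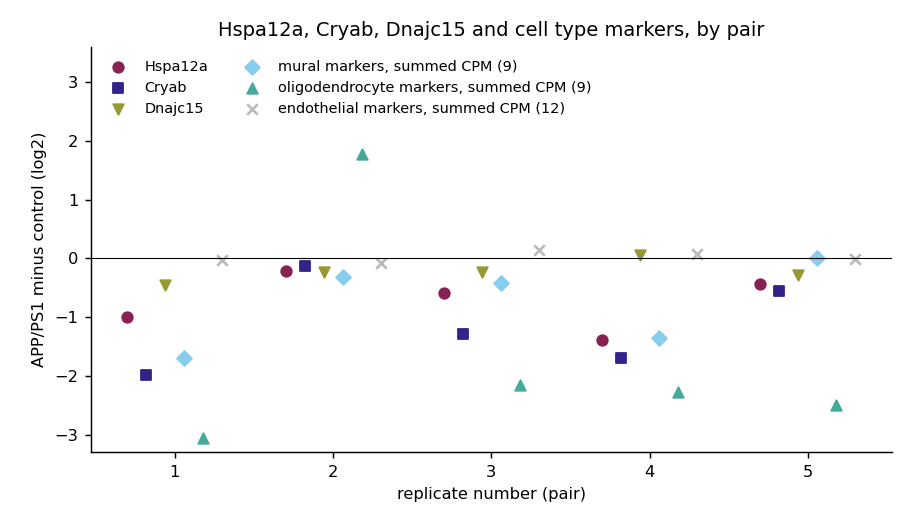
Difference within each pair (APP/PS1 minus control, log2, vertical) by replicate number for Hspa12a, Cryab and Dnajc15 and for the summed CPM of mural (9), oligodendrocyte (9) and endothelial (12) markers. Hspa12a and the mural sum are both lowest in pairs 1 and 4, but in pair 5 they differ by -0.43 and 0.01. The oligodendrocyte sum is higher in pair 2, and the endothelial sum stays between -0.07 and 0.14.

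Cytosolic partners of Hsp70 and Hsp90 were read from a list of 20 genes with Stip1, Ahsa1, Cdc37 and Stub1. Of these, 8 had a higher and 12 a lower mean in APP/PS1, and 1 had an unadjusted p under 0.05. This gene was Cryab (αB-crystallin), a small heat shock protein outside the symbol rule. It was weakly expressed, at 1.77 ± 0.33 log2 CPM in the controls against 0.64 ± 0.45 in the APP/PS1 group (SD, n = 5). Its log2 fold change was -1.13 ± 0.29 (SE, adjusted p = 0.537 by limma), with paired differences of -1.99, -0.12, -1.28, -1.69 and -0.56. Like Hspa12a it was lowest in pairs 1 and 4. Cryab is also known from oligodendrocytes and astrocytes.

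The CCT ring, which folds actin and tubulin, varied little. Its 6 Cct genes among the members had log2 fold changes from -0.03 to 0.03, with levels from 6.48 to 7.22 log2 CPM and a median SD of 0.09 over the paired differences. In pair 4 all 6 were higher in APP/PS1. Cct6a, a further subunit left out for its annotation, lay outside this range at -0.065 and was lower in all 5 pairs, as were 5% of all genes. Cct2 differed by 0.01 ± 0.06 (SE) and Cct5 by 0.00 ± 0.06 (SE). Among 10 partners of the chaperonin, with Tcp1 and the prefoldins, 2 had a higher and 8 a lower mean, with a median of -0.02 and 0 with an unadjusted p under 0.05.

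The heat shock factors were expressed at 5.79 (Hsf1) and 4.30 log2 CPM (Hsf2). Hsf1 differed by 0.03 ± 0.05 (SE) and Hsf2, a related factor active in development, by 0.10 ± 0.07 (SE, adjusted p = 0.824 by limma). Of the 6 BAG genes 3 were higher and 3 lower. Bag5, which exchanges nucleotides on Hsp70, had 5.67, 5.72, 5.73, 5.77 and 5.72 log2 CPM in the 5 controls and 5.87, 5.82, 5.81, 5.77 and 5.83 in their APP/PS1 partners. The groups met at pair 4, where the libraries were nearly equal, and the log2 fold change was 0.10 ± 0.05 (SE), with an unadjusted p of 0.0797 and an adjusted p of 0.700 in limma. Bag1, a nucleotide exchange factor, differed by -0.05 ± 0.08 (SE).

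Most of the remaining members were J proteins of the Dnajc class, of which 11 of 24 were higher and 13 lower. Dnajc4 had 3.45, 3.39, 3.42, 3.39 and 3.42 log2 CPM in the 5 controls and 3.28, 3.33, 3.30, 3.34 and 3.30 in their APP/PS1 partners. The groups did not overlap, which the same direction in all pairs nearly fixes after the batch correction. The difference was small and even across pairs, from -0.04 to -0.17. Its log2 fold change was -0.10 ± 0.04 (SE), with an unadjusted p of 0.0554 and an adjusted p of 0.637 in limma. Dnajc5, the cysteine string protein of secretory vesicles, differed by 0.02 ± 0.04 (SE), and Dnajc17, among the weakest members at 1.63 log2 CPM, by -0.03 ± 0.07 (SE). Of the Dnaja genes 4 of 4 had a higher mean, by at most 0.03, and of the Dnajb genes 6 of 10. The Hsp90 genes had a higher mean in 3 of 3, and Hsp90ab1 the widest of these at 0.11 ± 0.11 (SE, adjusted p = 0.855 by limma), or 0.02 without replicate 4 and 0.19 without replicate 2. These counts stand beside the 2400 of 3400 strongly expressed genes with a higher mean.

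Shared sequence limits several of these values. For 20 of 77 members more than 10% of the 50-base windows of the longest transcript also occur in other annotated genes, on either strand. The highest shares were in Hspa8, Hspa1l, Hspa1a, Hspa1b and Hsp90aa1. Another limit is that 24 members overlap another measured gene, and whether reads were counted by strand is not given in the sources used here. These limits partly cover the same sequence. The share of Hspa1l, 71.4%, lies with Gm10501, which overlaps it on the opposite strand.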

How the data were processed

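RNA of BECs was measured in 10 libraries, 5 from APP/PS1 and 5 from control mice. By the study's methods, the authors used STAR for alignment to mm10 and HTSeq-count for gene counts, removed weakly expressed genes, took log CPM with edgeR and corrected for batch with ComBat. Versions are not given in the sources used here. The values deposited are log2 CPM of 14106 genes in a joint table, and 10 single-library files hold the same values. In each library 100% of values converted back to whole adjusted counts (tolerance 0.05, prior count 3). As these counts were already corrected, no counting error was taken from them.

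The linear model of limma 3.58.1 (R 4.3.3; lmFit and eBayes without a trend) was fitted to the deposited log2 values of all genes with genotype and replicate number as terms, which left 4 residual degrees of freedom, and p values were adjusted over all genes by the Benjamini-Hochberg method (threshold 0.05). The pairing follows the batches in the study's supplement and the replicate numbers. Over 10873 genes the deviations of paired libraries had rank correlations of -0.999 to -0.989, a sign fixed by the correction of batch means. The labels give replicates 4 and 5 the same batch, which was tried as an alternative. The fit was tested on simulated data, in which it missed a part of the genes given a change, so a gene not called may still differ. Members, lists and tests were chosen with earlier results of these data known, so lists are described by counts and medians only. Named genes were a core list covering each family, the members with the same direction in all 5 pairs and the smallest p (up to 5 each way), the 3 most and 3 least expressed members, and partner genes with an unadjusted p under 0.05. Alternatives were a fit without pairs, the labelled batches, eBayes with a trend, log2(CPM + 1), a mean of at least 1 log2 CPM, libraries centred on their median, a threshold of 0.1 and each replicate left out. Symbols, positions and transcripts came from GENCODE M21 and promoters from RefSeq (GRCm38.p6).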

Additional observations from a re-analysis of the deposited data

Results flagged for a closer look

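In Cct5, a subunit of the cytosolic chaperonin, both libraries of replicate 4 stood apart from the other 4 of their group. The control library had 6.935 log2 CPM, against 7.062 to 7.096 in the others, and the APP/PS1 library had 7.163, against 6.997 to 7.036. As the batch means had been set equal, these are 1 difference seen from both sides. Over 64 groups searched, about 3 such libraries are expected by chance, since chance finds about 1 in 20 groups, and 2 were found.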

How the results depend on the processing

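Without the replicate block, that is with no paired term, 9 members had an unadjusted p under 0.05 in place of 3, and 2 an adjusted p under 0.05 in place of 0, in a fit that overcounts the degrees of freedom. With the 4 batches of the labels, 5 members had an unadjusted p under 0.05. Centring libraries on their median raised the members higher in all pairs from 1 to 4. Over the 5 fits that each left out 1 replicate, the members with an unadjusted p under 0.05 numbered 1 (without replicate 3 or 5) to 6 (without replicate 2), those higher in all remaining pairs 1 to 8, and those lower in all remaining pairs 4 to 7, where 4 pairs are met more easily than 5. The adjusted count stayed at 0 in the leave-one-out fits and under the other alternatives, apart from the fit without pairs.

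Of 341 values of the 31 named genes under alternatives, 312 kept their direction and side of the threshold and 2 (Hspa12a and Dnajc4, without pairs) passed the adjusted threshold. The other 27 changed sign, each with a replicate left out. Their leave-one-out ranges were -0.0919 to 0.23 in Hspa1a, -0.0646 to 0.20 in Hspa1b, -0.15 to 0.22 in Hsph1, -0.0545 to 0.12 in Hspb1, -0.15 to 0.0145 in Hspb8, -0.0116 to 0.23 in Hsp90aa1, -0.26 to 0.0675 in Hspa1l and -0.0576 to 0.0393 in Hspd1. They were -0.018 to 0.0488 in Dnaja1, -0.0761 to 0.0758 in Dnajb1, -0.0026 to 0.0466 in Dnajc3, -0.07 to 0.0131 in Dnajc17, -0.0312 to 0.0466 in Cct2, -0.0558 to 0.0262 in Cct5, -0.0939 to 0.0247 in Bag1 and -0.0146 to 0.15 in Bag3. Hspa12a ranged from -0.85 to -0.56 and Hspe1 from -0.17 to -0.10, whose unadjusted p was above 0.05 in 4 of the 5 fits. Among genes that kept their sign, Hspa8 ranged from 0.02 to 0.32, Hspa5 from 0.09 to 0.25 and Hsp90ab1 from 0.02 to 0.19.

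With 5 pairs and 4 residual degrees of freedom, differences of the size seen in most members could not be told from the spread between pairs. Depth before the correction is unknown, so no limit from counting was set. The leave-one-out spread of the heat-inducible list was added after the values were seen.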

Other observations

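Rows with a member symbol but no protein-coding annotation were left out of the counts. One was Cct6a, a chaperonin subunit annotated in GENCODE M21 as a processed transcript, with a mean level of 6.86 log2 CPM and a log2 fold change of -0.065 (adjusted p = 0.81 by limma). Cct6a was lower in APP/PS1 in all 5 pairs. The other was the pseudogene Dnajc19-ps.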
